A study of Mus musculus with 21 samples.

Results

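The choroid plexus genes examined here were Ttr, Enpp2, Sostdc1, Folr1, Prlr, Kl, Kcnj13, Aqp1, Clic6 and Otx2. They were chosen by symbol as genes of the choroid plexus epithelium, with earlier results of these data known, and all 10 of 10 symbols were matched to Ensembl identifiers among the 55401 genes of the count table. All 10 passed the filter on low counts over the 6 groups, as did 22863 genes in all. They were followed in each mouse because the choroid plexus is a small tissue inside the ventricles, and the amount of it that enters a dissected forebrain can differ from mouse to mouse.

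The libraries came from frozen forebrains of 21 mice and measured bulk RNA. Of the 9 parental mice, 3 each were E2H, E3H and E4H, which are homozygous for targeted replacement of the mouse Apoe gene by human APOE2, APOE3 or APOE4, on a C57BL6 background and 9 to 10 months old. The 12 PS19 mice (4 each of PS/E2H, of PS/E3H and of PS/E4H) carried the same homozygous human APOE alleles together with 1 copy of the PS19 transgene, which encodes human tau with the P301S mutation and came from a B6/C3H background. These mice were killed when hindlimb paralysis was reached, so tau genotype, strain background, paralysis and age at death cannot be told apart in a comparison of PS19 with parental mice. Library depth was 59265459 to 75932183 counts. The summed level of 7 forebrain genes was 254 to 463 CPM (counts scaled to the library total) in the 21 mice. For 7 genes of hindbrain and cerebellum it was 10.1 to 33.2 CPM, mostly from Cbln1 (means of 19.8 CPM in PS19 and 19.7 in parental mice). These sums depend on the genes listed, so they do not test the dissection. The GEO labels give no sex, and the methods describe most of the mice as male. In the counts, Xist, the RNA of the inactive X chromosome, was at 12188 to 36358 in 17 mice that had at most 21 counts of the Y-linked gene Ddx3y, whereas Ddx3y was at 2517 to 4246 and Xist at 164 to 189 in E4H mouse 3, PS/E2H mouse 2 and PS/E4H mice 1 and 4. The number of exceptions matched the methods but the direction did not, so results over both tau groups are also given without these 4 mice.

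The choroid plexus consists of a single layer of epithelial cells around a stroma with leaky capillaries. The epithelium secretes cerebrospinal fluid by moving ions and water from blood to ventricle, carries vitamins and hormones across, and releases proteins into the fluid. Ttr (transthyretin, the carrier of thyroxine and of retinol-binding protein), Enpp2 (autotaxin, which makes lysophosphatidic acid) and Sostdc1 (a secreted antagonist of BMP and Wnt signaling) are secreted products. Folr1 (a high-affinity folate receptor), Prlr (the prolactin receptor) and Kl (Klotho, a co-receptor for FGF23) bind ligands. Kcnj13 (the inwardly rectifying potassium channel Kir7.1), Aqp1 (a water channel of the apical membrane) and Clic6 (a chloride intracellular channel family protein) belong to the ion and water transport machinery. Otx2 is a homeodomain transcription factor needed for formation and upkeep of the epithelium. Enpp2 is also transcribed in oligodendrocytes, and several of the others are known outside the choroid plexus, so none of the 10 is a measure of this tissue alone. In bulk RNA, fewer cells of a type and less RNA per cell cannot be told apart.

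The genes lie on 9 chromosomes of GRCm38. Kl (chr5:150952607-150993817, plus strand), Aqp1 (chr6:55336432-55348555, plus), Sostdc1 (chr12:36314139-36318452, plus) and Ttr overlapped no other gene of the annotation. Kcnj13 (chr1:87386363-87394729, minus) lies within Gigyf2 on the opposite strand. Folr1 (chr7:101858331-101870788, minus), Otx2 (chr14:48657677-48673819, minus), Enpp2 (chr15:54838901-54952892, minus), Clic6 (chr16:92485736-92541243, plus) and Prlr (chr15:10177238-10349180, plus) each overlapped at least 1 other annotated gene. Whether strand was used in the counting is not given in the sources used here, so reads of overlapping genes could have been shared for these 6 genes.

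Promoter sequence was available for 5 of the 10 genes in the RefSeq table for GRCm38.p6. The 250 bases before the annotated start are shown for Kl, Kcnj13 and Aqp1, because these 3 genes have 1 start each in the table and moved together from mouse to mouse, as described below. Capitals mark TAAT or its reverse complement ATTA, the core recognized by homeodomain proteins such as Otx2, searched on both strands. The windows are chr5:150952357-150952606 (plus strand) for Kl, chr1:87394730-87394979 (minus) for Kcnj13 and chr6:55336049-55336298 (plus) for Aqp1, and none of them overlapped an annotated exon.
Kl: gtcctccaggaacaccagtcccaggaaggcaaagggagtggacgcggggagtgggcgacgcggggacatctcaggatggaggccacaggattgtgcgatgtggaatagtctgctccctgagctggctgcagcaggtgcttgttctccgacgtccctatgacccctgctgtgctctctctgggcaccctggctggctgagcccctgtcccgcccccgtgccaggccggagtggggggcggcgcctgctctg
Kcnj13: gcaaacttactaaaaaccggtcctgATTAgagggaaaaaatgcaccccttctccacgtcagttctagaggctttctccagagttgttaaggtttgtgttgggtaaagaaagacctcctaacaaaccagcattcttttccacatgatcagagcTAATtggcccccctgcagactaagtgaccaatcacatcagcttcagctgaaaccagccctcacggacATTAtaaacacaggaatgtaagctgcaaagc
Aqp1: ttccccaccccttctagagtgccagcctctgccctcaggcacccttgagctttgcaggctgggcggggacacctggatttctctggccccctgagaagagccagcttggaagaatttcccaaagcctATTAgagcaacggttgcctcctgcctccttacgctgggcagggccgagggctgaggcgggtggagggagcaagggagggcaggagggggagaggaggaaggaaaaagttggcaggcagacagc
Kcnj13 held 3 such cores, Aqp1 held 1 and Kl held 0, in a window that was 66.8% G and C for Kl, 45.2% for Kcnj13 and 62% for Aqp1. The core was present in 54.9% of the 32851 windows of this length in the table. The longer motif TAATCC (reverse complement GGATTA), which contains the core and is preferred by Otx2, was in 6.25% of all windows and in 1 of the 10 windows of these genes, at an alternative start of Otx2 itself. A match describes letters in the window only.

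Per transcript length and library size (FPKM), Ttr was the most abundant of the 10 transcripts in every group, with a median level of 451 FPKM over the 21 mice (278 to 855). Enpp2 followed at a median of 73 FPKM (58.5 to 120), and the ranges of Ttr and Enpp2 overlapped neither each other nor any of the other 8. The remaining medians, in FPKM, were 5.04 for Clic6, 4.04 for Kcnj13, 2.65 for Folr1, 2.53 for Sostdc1, 2.49 for Kl, 1.87 for Aqp1, 1.14 for Otx2 and 0.527 for Prlr. From Clic6 down to Prlr, the ranges of adjacent genes in this order overlapped, so neighbors are not separated by the spread between mice. Genes farther apart can be, as Clic6 (2.98 to 9.27 FPKM) did not overlap Aqp1 (1.02 to 2.65 FPKM).

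Levels of 1 gene in different mice are given below as CPM after TMM scaling of the libraries. Among the secreted products, Ttr was at 561, 663 and 403 CPM in E2H mice 1 to 3, 682, 449 and 559 in E3H, and 693, 401 and 427 in E4H. In the PS19 mice Ttr was at 626, 828, 638 and 591 CPM in PS/E2H, 367, 639, 546 and 624 in PS/E3H, and 384, 1120, 585 and 757 in PS/E4H. The lowest and the highest values thus both came from PS19 mice, PS/E3H mouse 1 and PS/E4H mouse 2, which differed 3.06-fold, and every parental value lay between them. Enpp2 was at 388 to 521 CPM in the 9 parental mice (median 424) and at 398 to 764 in the 12 PS19 mice (median 563). The ranges overlapped, and the highest Enpp2 value was again that of PS/E4H mouse 2. Sostdc1 was at 2.08 to 5.17 CPM in parental mice (median 4.4) and 3.15 to 11.1 in PS19 mice (median 5.37), with its highest value in PS/E4H mouse 4.

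Of the receptors, Folr1 was at 3.16 to 7.28 CPM in parental mice (median 4.16) and 3.52 to 12.6 in PS19 mice (median 7.53). In PS/E4H the 4 mice held 3.52, 12.6, 7.82 and 9.94 CPM, which nearly spanned the range of all 21 mice. Kl was at 22.6, 16.9 and 17.7 CPM in E2H, 32.4, 23.8 and 30.5 in E3H, and 30.9, 20.5 and 19.8 in E4H. In PS19 mice Kl was at 16.4 to 34.4 CPM, and its parental and PS19 medians were 22.6 and 26.2. Prlr was at 8.8, 8.46 and 8.91 CPM in E2H, 10.9, 0.512 and 10.8 in E3H, and 13.8, 9.54 and 8.11 in E4H. The PS19 values of Prlr were 7.54, 5.98, 14.8 and 7.86 CPM in PS/E2H, 7.78, 1.59, 13.8 and 7.34 in PS/E3H, and 8.66, 15.5, 12.3 and 9.61 in PS/E4H. E3H mouse 2 and PS/E3H mouse 2 stood far below all the other mice for this gene.

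Of the channels, Kcnj13 was at 4.87, 4.36 and 4.45 CPM in E2H, 6.44, 5.14 and 5.64 in E3H, and 6.31, 4.51 and 4.01 in E4H. In PS19 mice Kcnj13 was at 6.91, 4.43, 5.54 and 5.01 CPM in PS/E2H, 5.21, 6.82, 7.73 and 7.04 in PS/E3H, and 4.99, 10.8, 6.78 and 11.3 in PS/E4H. The values above 7.7 CPM were those of PS/E3H mouse 3 and PS/E4H mice 2 and 4. Aqp1 was at 2.91, 3.32 and 3.47 CPM in E2H, 5.6, 3.65 and 5.14 in E3H, and 5.64, 3.69 and 3.25 in E4H. In PS19 mice Aqp1 was at 4.95, 6.56, 7.36 and 3.73 CPM in PS/E2H, 4.03, 6.24, 5.74 and 7.54 in PS/E3H, and 5.35, 7.41, 4.68 and 7.31 in PS/E4H. All 3 E2H mice were below all 4 PS/E2H mice for Aqp1, while the parental and PS19 ranges overlapped in the other lines. Clic6 was at 12.7 to 24 CPM in parental mice (median 16.7) and 16.3 to 40.2 in PS19 mice (median 23). The transcription factor Otx2 was at 2.99 to 6.47 CPM in parental mice (median 4.87) and 4.04 to 10 in PS19 mice (median 6.27).

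**Figure D1:**
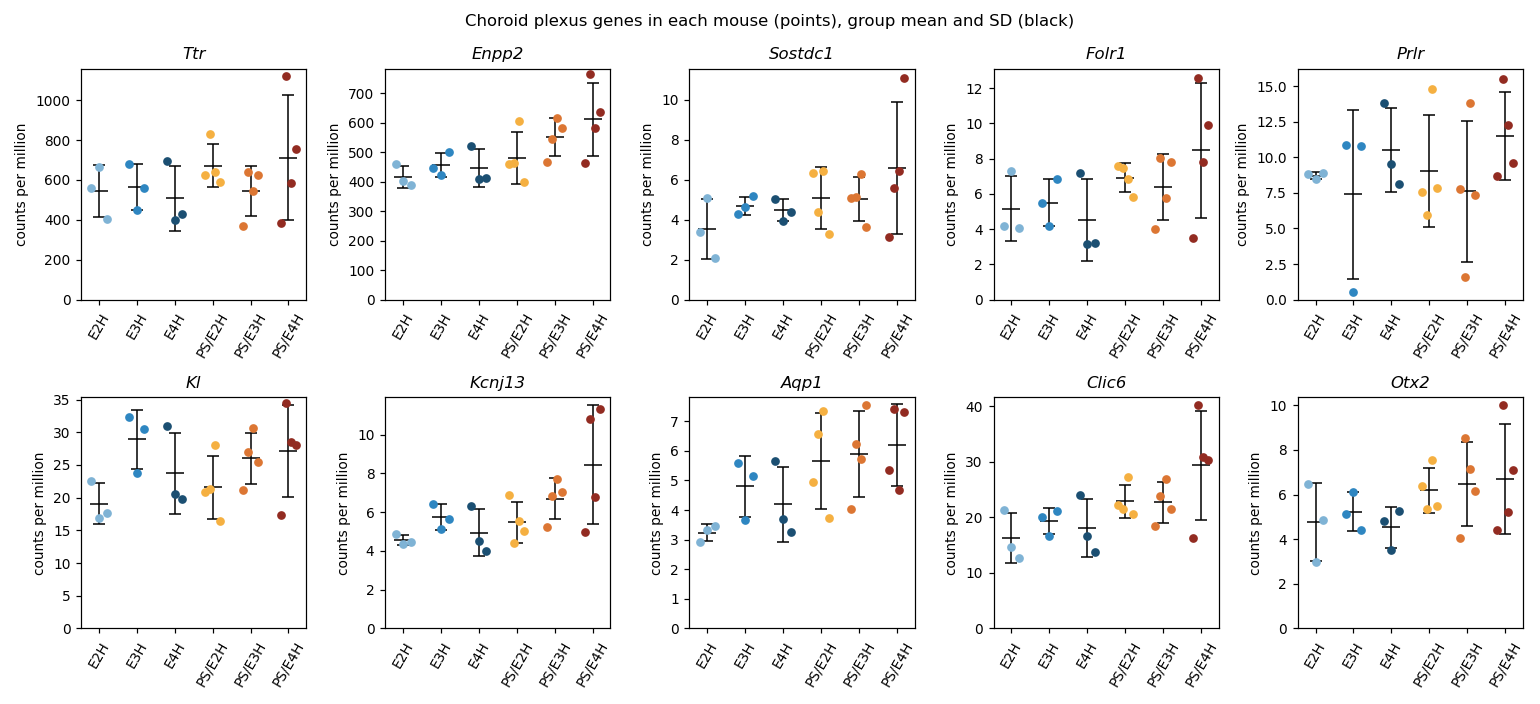
Level of each of the 10 choroid plexus genes in CPM (vertical axes, starting at 0) in each mouse (points) of the 6 groups (horizontal axes), with the group mean and SD in black (n = 3 parental or 4 PS19 mice). PS/E4H mouse 2 is at 1120 for Ttr, 764 for Enpp2 and 40.2 for Clic6, and E3H mouse 2 is at 0.512 for Prlr.

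The spread between mice of a group differed among the 10 genes. The pooled within-group SD of log2 CPM was 0.216 for Enpp2, 0.311 for Kl, 0.331 for Kcnj13, 0.353 for Clic6, 0.358 for Aqp1, 0.411 for Otx2, 0.419 for Ttr, 0.488 for Sostdc1, 0.535 for Folr1 and 1.15 for Prlr. The median SD was 0.169 over the 15774 genes with a mean of at least 1 CPM, and 10 of the 10 genes exceeded it. These genes were not matched to the 10 by level. Over all 22863 genes that passed the filter the median was 0.253, and 9 of the 10 exceeded it, Enpp2 being the exception.

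The 10 genes were combined into an index, the geometric mean of each gene's level relative to its own mean, in which 1 is the average of the 21 mice. The index was 0.883, 0.843 and 0.726 in E2H mice 1 to 3, 1.07, 0.668 and 1.06 in E3H, and 1.17, 0.776 and 0.774 in E4H. It was 1.08, 1.01, 1.28 and 0.87 in PS/E2H, 0.843, 1.01, 1.25 and 1.11 in PS/E3H, and 0.807, 1.71, 1.2 and 1.48 in PS/E4H. The full range was thus from 0.668 to 1.71, and the 12 PS19 mice (median 1.09) overlapped the 9 parental mice (median 0.843). Of the sum of squares of the log2 index, 64.7% lay within the groups and the rest between them.

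PS/E4H was the least even group, with a 2.12-fold ratio of its highest to its lowest index. PS/E4H mouse 2 had the highest level of all 21 mice for 7 of the 10 genes and was among the 5 highest for 9 of them. PS/E4H mouse 4 held the highest level of 2 genes, Kcnj13 and Sostdc1, and was among the 5 highest for 8. PS/E4H mouse 1, in contrast, was among the 5 lowest for 6 genes. E2H mouse 3 was among the 5 lowest for 8 genes, and E4H mouse 3 for 7. Without Prlr, the index of E3H mouse 2 was 0.862 and that of PS/E3H mouse 2 was 1.2, so the low position of E3H mouse 2 rested on that gene.

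**Figure D2:**
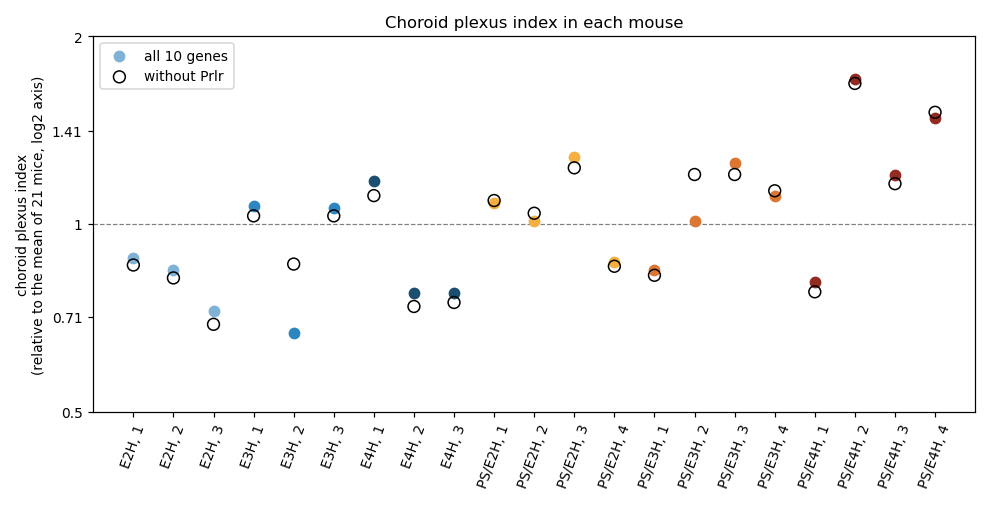
Choroid plexus index of each mouse on a log2 axis, relative to the mean of 21 mice (dashed line at 1). Filled points use all 10 genes, colored by group, and open circles leave out Prlr. PS/E4H mice 2 and 4 are highest at 1.71 and 1.48, PS/E4H mouse 1 is at 0.807, and E3H mouse 2 moves from 0.668 to 0.862 without Prlr.

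Markers of neighboring tissues were set beside the index in the same mice. The summed level of 30 further choroid plexus epithelium genes was 344 to 463 CPM in parental mice and 452 to 627 in PS19 mice. Igf2, which meninges and stroma also make, weighed most in this sum, at means of 74.4 CPM in parental and 120 CPM in PS19 mice. PS/E4H mouse 2 was highest for the sum at 627 CPM. That mouse was also highest for 10 ependymal genes at 54.9 CPM (23.3 to 46.4 in the other 20) and for 8 oligodendrocyte genes at 9350 CPM (4860 to 8770 in the others). For 10 genes of meninges and choroid plexus stroma PS/E4H mouse 2 was at 172 CPM, within the range of the other mice, which reached 243 in PS/E3H mouse 4. Their part in the index was not tested.

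The levels of most of the 10 genes went up and down together within groups. After subtraction of group means from log2 CPM, Pearson's r over the 21 mice between 1 gene and the mean of the others was 0.91 for Kl, 0.89 for Enpp2, 0.85 for Clic6, 0.8 for Kcnj13, 0.77 for Ttr, 0.75 for Folr1 and 0.66 for Aqp1. It was lower for Sostdc1 (0.45), Otx2 (0.37) and Prlr (0.25). Of the 45 pairs of genes, 29 had an r of 0.5 or more, with a median of 0.59. The highest were Kl with Enpp2 and Kl with Clic6, each at 0.93, and the promoter sequences of Kl, Kcnj13 and Aqp1 printed above belong to genes paired at 0.74 (Kl with Kcnj13), 0.67 (Kl with Aqp1) and 0.56 (Kcnj13 with Aqp1). Leaving out the 2 mice farthest from the median left r at 0.87 for Kl, 0.89 for Enpp2 and 0.63 for Folr1. These correlations are descriptions only, since all genes of a mouse come from 1 library and share its depth and dissection.

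**Figure D3:**
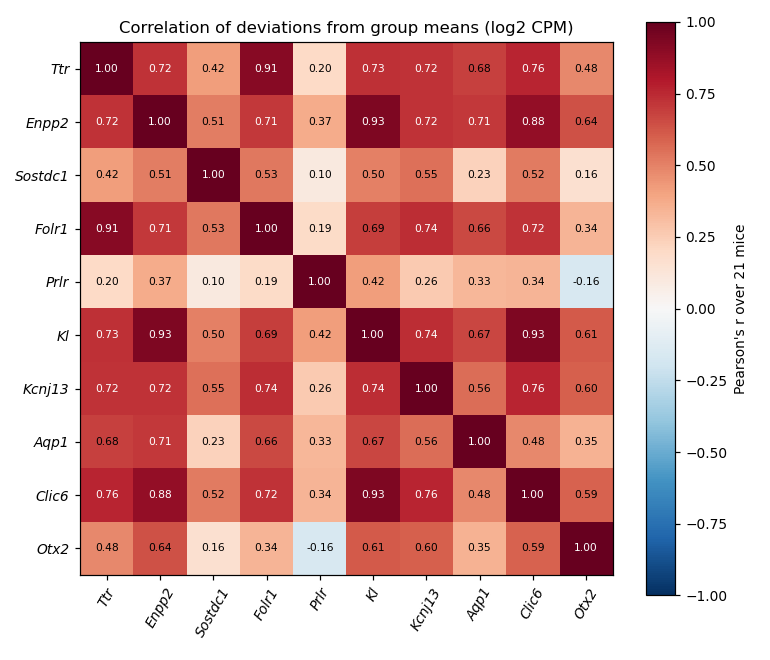
Pearson's r between the 10 choroid plexus genes over 21 mice, from log2 CPM after subtraction of group means (color scale from -1 to 1, value printed in each square). Kl, Enpp2 and Clic6 have r of 0.88 to 0.93 with each other, whereas the row of Prlr runs from -0.16 to 0.42.

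The 22853 other genes were ranked by the same correlation with the mean of the 10. The 15 most alike were Tmem72 (r = 0.867), Gm9797, Cldn2 (0.825), Kcne2 (0.825), Mfrp (0.818), Slc2a12 (0.802), Vmn2r87, Sohlh1, 1500015O10Rik (0.778), Gm29724, AC103939.1, Gm6421, 2900040C04Rik, 2310057M21Rik and Rps10-ps1 (0.761). Cldn2, a tight junction protein, Kcne2, a potassium channel subunit, and Slc2a12, a sugar transporter, are among the 30 further choroid plexus genes, as are Tmem72 and 1500015O10Rik (Ecrg4). Of these 30 genes, 5 were among the 15 most alike and 10 among the 100 most alike, and their median r was 0.44, against 0 for all other genes. With a prior count of 2, 14 of the 15 genes were shared. Without subtraction of group means 5 of the 15 were shared, so most of this list depends on that choice, and 4 of the 15 had a mean level under 1 CPM.

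The same correlations were taken with summed marker levels of other cell types. For the mean of the 10 genes, r was 0.8 with the 30 further choroid plexus genes, 0.43 with ependymal genes, 0.25 with microglial genes, 0.24 with endothelial genes, 0.18 with stromal genes, 0.09 with oligodendrocyte genes and -0.05 with neuronal genes. Enpp2 had an r of 0.82 with the further choroid plexus genes and 0.24 with the oligodendrocyte genes. Aqp1 differed from the others in its r of 0.68 with microglial and 0.63 with stromal genes, but its highest r was 0.8 with the further choroid plexus genes. Otx2 had an r of 0.51 with hypothalamic genes and 0.61 with ependymal genes, against 0.57 with the further choroid plexus genes. Like Otx2, Sostdc1 (0.34 with ependymal against 0.32 with choroid plexus genes) and Prlr (0.29 with neuronal against 0.17 with choroid plexus genes) were not highest with the choroid plexus list.

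Prlr did not follow the other genes in E3H mouse 2 and PS/E3H mouse 2. The raw count of Prlr was 32 in E3H mouse 2 and 100 in PS/E3H mouse 2, against 350 to 942 in the other 19 mice. The index of the other 9 genes was 0.862 in E3H mouse 2 and 1.2, among the 5 highest, in PS/E3H mouse 2. Of 22863 genes, 92 were lower in both of these mice than in all 19 others, and for 5 genes the gap was at least 1 on the log2 scale. These were Mettl21c (gap of 3.08), Prlr (1.9), Arid3c (1.25), Gm10290 (1.14) and Zfp82 (1.09), named after their values were seen. The same count for other pairs of mice was not taken, so 92 is not shown to be unusual. Of genes near Prlr on chromosome 15, picked in the same way, the raw counts lay within or just below the range of the other 19 mice, or above it. Dnajc21 had 1743 and 1357 counts in E3H mouse 2 and PS/E3H mouse 2 against 1392 to 2251 in the others, Rad1 had 522 and 395 against 444 to 693, and Spef2 had 104 and 191 against 76 to 183. The overlapping gene Gm21973 had 0 counts in all 21 mice. Comparisons with E3H or PS/E3H mice gave wide intervals for Prlr, as in E2H against E3H, where its log2 fold change was 0.23 with a 95% interval of -1.4 to 1.85.

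**Figure D4:**
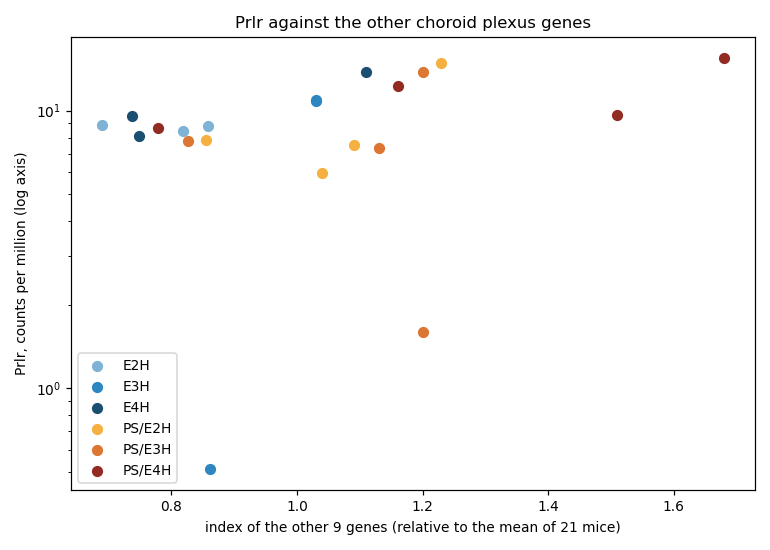
Prlr in CPM (log axis) against the index of the other 9 choroid plexus genes, 1 point per mouse, colored by group. E3H mouse 2 (0.512 CPM) and PS/E3H mouse 2 (1.59 CPM) lie below the other 19 mice, which hold 5.98 to 15.5 CPM.

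The first question of the design was whether APOE genotype alone changes expression in parental mice. A gene counted as called where edgeR's quasi-likelihood test gave an adjusted p (Benjamini-Hochberg, over all genes tested) under 0.05 together with a difference of 2-fold or more. In E2H against E3H mice, 0 of the 10 choroid plexus genes were called, where 0.144% of all tested genes were, and 2 of the 10 had an unadjusted p under 0.05. The share of all genes at an unadjusted p under 0.05 was not counted here or below, so such counts are descriptions only. Kl, at 16.9 to 22.6 CPM in E2H and 23.8 to 32.4 in E3H, did not overlap between the groups. Its log2 fold change was -0.6 (SE 0.151), with an adjusted p of 0.218 by edgeR. With DESeq2, Kl was lower in E2H by -0.61 at an adjusted p of 0.0108, still under the 2-fold limit. Aqp1 had a log2 fold change of -0.58 (SE 0.201, adjusted p = 0.275 by edgeR) and Kcnj13 one of -0.34 (SE 0.156, adjusted p = 0.366 by edgeR), and neither overlapped between E2H and E3H. Groups did not overlap for these 3 of the 10 genes and for 23.3% of all genes tested, a similar share. The median log2 fold change of the 10 genes was -0.2, against -0.01 for all genes.

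In E4H against E3H mice, 0 of the 10 genes were called (0.1% of all genes), and 0 had an unadjusted p under 0.05. Of their log2 fold changes 1 of 10 was above 0 (49.3% of all genes) and the median was -0.17 (0 for all genes), with a range from -0.29 for Folr1 to 0.5 for Prlr, and the 95% confidence interval of Kl was -0.65 to 0.09. In E4H against E2H mice the same counts were 0 called (0.187% of all genes) and 0 under an unadjusted p of 0.05, with the largest difference for Aqp1 at 0.38 (95% interval -0.14 to 0.91). DESeq2 called 0 of the 10 in each of these 3 comparisons.

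The second question was whether APOE genotype changes expression in PS19 mice. These mice were killed at paralysis, which the paper reports came later in PS/E3H than in PS/E2H and PS/E4H. APOE genotype and age at death can therefore not be told apart here. Sex by counts was also uneven, with high Ddx3y counts in PS/E2H mouse 2 and PS/E4H mice 1 and 4 and in no PS/E3H mouse. In PS/E2H against PS/E3H, 0 of the 10 genes were called, where 0.108% of all genes were, and 0 had an unadjusted p under 0.05. Ttr, at 671 ± 107 CPM in PS/E2H and 544 ± 125 CPM in PS/E3H (SD, n = 4 each), had a log2 fold change of 0.3 (95% interval -0.07 to 0.66). In PS/E4H against PS/E3H, 0 of the 10 were called (0.0197% of all genes), and 0 had an unadjusted p under 0.05, with 10 of the 10 log2 fold changes above 0 (50.3% of all genes) and a median of 0.35 (0 for all genes). In PS/E4H against PS/E2H, 0 were called (0.109% of all genes) and 2 had an unadjusted p under 0.05. These were Kcnj13 (log2 fold change 0.63, SE 0.252, adjusted p = 0.373 by edgeR) and Enpp2 (0.34, SE 0.155, adjusted p = 0.402 by edgeR). DESeq2 called 0 of the 10 in each. The shared PS/E4H mice, of which mice 2 and 4 had the highest index and mouse 1 the lowest of the PS19 mice, entered both of the latter comparisons.

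The third question was the effect of the tau transgene in each APOE line. In PS/E2H against E2H mice, 0 of the 10 genes were called at 2-fold, where 0.485% of all genes were, and 2 had an unadjusted p under 0.05. Aqp1 was at 5.65 ± 1.63 CPM in PS/E2H (SD, n = 4) and 3.23 ± 0.292 CPM in E2H (SD, n = 3), without overlap, as for 11.7% of all genes tested. Its log2 fold change was 0.8 (SE 0.239), with an adjusted p of 0.218 by edgeR. Clic6 had a log2 fold change of 0.49 (SE 0.185, adjusted p = 0.36 by edgeR).

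In PS/E3H against E3H mice, 0 of the 10 were called at 2-fold (1.32% of all genes) and 0 at an adjusted p under 0.05 alone (5.37% of all genes). Enpp2 had the only unadjusted p under 0.05, with a log2 fold change of 0.26 (SE 0.0969, adjusted p = 0.148 by edgeR). Without PS/E3H mouse 1 the log2 fold change of Enpp2 was 0.34, with an adjusted p of 0.0148 by edgeR. That mouse had the lowest index of its group (0.843), and more genes in all were called in this refit, as given in the last section. With all mice, Ttr and Kl had log2 fold changes of -0.06 and -0.16, with 95% intervals of -0.47 to 0.34 and -0.46 to 0.14.

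In PS/E4H against E4H mice, 0 of the 10 were called at 2-fold (2.98% of all genes) and 0 at an adjusted p under 0.05 alone (15.6% of all genes). At least 15.6% of all genes had an unadjusted p under 0.05, as did 4 of the 10. These were Kcnj13 (log2 fold change 0.77, SE 0.284, adjusted p = 0.0957 by edgeR), Clic6 (0.69, SE 0.272, adjusted p = 0.114), Aqp1 (0.56, SE 0.234, adjusted p = 0.14) and Enpp2 (0.44, SE 0.152, adjusted p = 0.0756). This outcome changed without PS/E4H mouse 1, whose index of 0.807 was the lowest of the PS19 mice. The share of all genes passing in this refit is not given here. Then Folr1 had a log2 fold change of 1.17 (adjusted p = 0.0402 by edgeR) and was called, and Kcnj13 (0.96, adjusted p = 0.0247 by edgeR), Clic6 (0.9, 0.0166) and Enpp2 (0.56, 0.0163) also passed the adjusted p limit below 2-fold. With all mice, Kcnj13 passed the adjusted p limit with DESeq2 (0.76, adjusted p = 0.0232) and in 1 edgeR fit of all 6 groups (0.78, adjusted p = 0.0359).

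To use all mice, the 12 PS19 mice were compared with the 9 parental mice in 1 edgeR fit with the APOE line as a term. At 2-fold, 0 of the 10 genes were called, where 2.6% of all genes were, and DESeq2 also called 0. An unadjusted p under 0.05 was reached by 7 of the 10 and by at least 21% of all genes. At an adjusted p under 0.05 with no limit on the fold, 4 of the 10 passed, where 21% of all genes did, and all 4 were higher in PS19 mice, as 11.4% of all genes were. The water channel Aqp1 was at 5.91 ± 1.37 CPM in PS19 mice (SD, n = 12) and 4.07 ± 1.07 CPM in parental mice (SD, n = 9), a log2 fold change of 0.55 (SE 0.148, adjusted p = 0.00974 by edgeR). Clic6 was at 25 ± 6.56 and 17.9 ± 3.92 CPM, a log2 fold change of 0.47 (SE 0.137, adjusted p = 0.0158 by edgeR). Kcnj13 was at 6.88 ± 2.2 and 5.08 ± 0.874 CPM, a log2 fold change of 0.42 (SE 0.141, adjusted p = 0.0372 by edgeR). Enpp2 was at 548 ± 103 and 440 ± 45.9 CPM, a log2 fold change of 0.31 (SE 0.0847, adjusted p = 0.0109 by edgeR).

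The other 6 genes had log2 fold changes of 0.52 for Folr1 (adjusted p = 0.0817 by edgeR), 0.41 for Otx2 (0.0677), 0.4 for Sostdc1 (0.147), 0.25 for Ttr (0.314), 0.08 for Prlr (0.914) and 0.07 for Kl (0.739). The 95% interval for Ttr was -0.09 to 0.58 and that for Kl was -0.18 to 0.32, and that for Prlr was wider at -0.62 to 0.77. A 2-fold difference lay outside each of these 3 intervals. The median log2 fold change of the 10 genes was 0.41, against -0.01 for all genes.

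Clic6, Enpp2 and Aqp1 still passed the adjusted p limit, below 2-fold, when any single mouse was left out. Their adjusted p values by edgeR were up to 0.0402, 0.0305 and 0.0239. Kcnj13 no longer passed this limit when any of 10 mice was left out, with an adjusted p of up to 0.0916 by edgeR. These were E2H mouse 3, E3H mice 2 and 3, E4H mice 2 and 3, PS/E2H mouse 1, PS/E3H mice 3 and 4, and PS/E4H mice 2 and 4. Folr1 passed without E2H mouse 2, PS/E3H mouse 1 or PS/E4H mouse 1, and Otx2 without E2H mouse 1, PS/E3H mouse 1 or PS/E4H mouse 1. Without the 4 mice with Ddx3y counts, 3 of the 10 genes passed, and Aqp1 had a log2 fold change of 0.46 with an adjusted p of 0.0606 by edgeR. Without the 2 mice low in Prlr, 3 passed, and Kcnj13 had an adjusted p of 0.07 by edgeR. The share of all genes passing in these refits is not given here, so these counts are descriptions only.

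**Figure D5:**
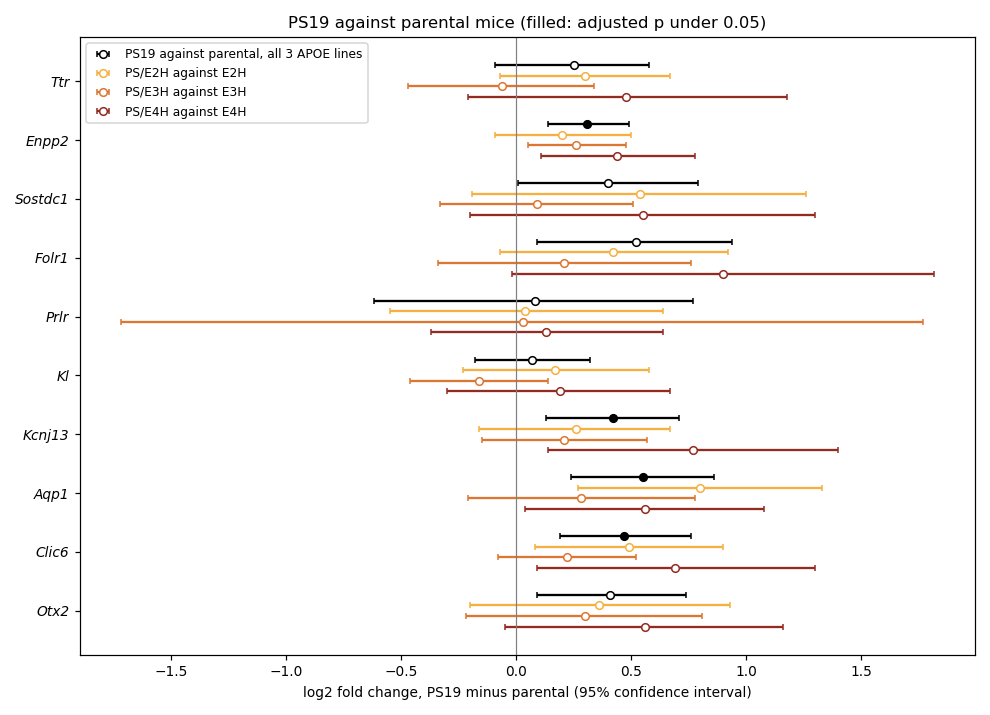
Log2 fold change of each choroid plexus gene, PS19 minus parental, with its 95% confidence interval, for all 3 APOE lines together (black) and for each line (colors). Filled points have an adjusted p under 0.05 by edgeR, which holds for Enpp2, Kcnj13, Aqp1 and Clic6 over all lines and for no gene in a single line.

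Markers of other cell types were taken from the same fit. In it, 21% of all genes passed an adjusted p under 0.05 by edgeR, and 11.4% were higher in PS19 mice. In PS19 mice 7 of 10 genes of meninges and choroid plexus stroma rose at an adjusted p under 0.05 in edgeR and 0 fell, with a summed level of 119 to 243 CPM against 67.3 to 135 in parental mice. Of 10 ependymal genes 1, Foxj1, rose and 0 fell, a share near that of all genes. Their sum was 23.3 to 54.9 CPM against 23.9 to 34.7 in parental mice. Microglial genes rose in 8 of 9 cases (297 to 593 against 229 to 298 CPM), astrocyte genes in 6 of 6 (1950 to 3800 against 970 to 1240 CPM) and border macrophage genes in 5 of 6 (16.4 to 32.3 against 6.63 to 13.1 CPM). Of 8 oligodendrocyte genes, which matter for Enpp2, 5 rose, with a sum of 6180 to 9350 CPM against 4860 to 7190. Of 7 forebrain genes 6 fell, with a sum of 254 to 374 CPM against 350 to 463, and of 6 neuronal genes 3 fell and 2 rose. The part of these cell types in the higher levels of Aqp1, Clic6, Kcnj13 and Enpp2 was not tested.

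The 30 further choroid plexus genes were compared in the same fit. Of these, 12 rose in PS19 mice and 0 fell at an adjusted p under 0.05 by edgeR, where 11.4% of all genes rose, and their median log2 fold change was 0.37. Wfikkn2, a secreted protease inhibitor family member, was at 4.84 ± 1.61 CPM in PS19 mice (SD, n = 12) and 2.41 ± 0.845 in parental mice (SD, n = 9), a log2 fold change of 1 (SE 0.204, adjusted p = 0.00107 by edgeR). Igf2, a growth factor that meninges and stroma also make, had a log2 fold change of 0.7 (adjusted p = 0.000123 by edgeR) and Ace, the angiotensin-converting enzyme, one of 0.58 (adjusted p = 1.77e-06 by edgeR). Within groups, r with the mean of the 10 genes was 0.02 for Wfikkn2, 0.235 for Igf2 and 0.687 for Ace. Tmem72, Kcne2 and Cldn2, which were among the genes most like the 10, had log2 fold changes of 0.09, 0.07 and 0.2, with adjusted p values by edgeR of 0.721, 0.842 and 0.428. Slc2a12, also among the most alike, had a log2 fold change of 0.52 (adjusted p = 0.00586 by edgeR).

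Of 18 ligands, receptors and transport partners of the 10 genes, 4 rose and 1 fell in PS19 mice at an adjusted p under 0.05 by edgeR, a share near the 21% of all genes that passed in this fit. Among them were Fgfr1, the receptor that Klotho joins (log2 fold change 0.35, adjusted p = 0.000253 by edgeR), and Bmp4 and Bmp7, ligands of the pathway that Sostdc1 antagonizes (0.9 and 0.38, adjusted p = 0.000123 and 0.00548 by edgeR). Stat5b, which acts below the prolactin receptor, had a log2 fold change of 0.2 (adjusted p = 0.0173 by edgeR). Prl, the pituitary hormone bound by Prlr, was at 2.05 ± 2.19 CPM in parental mice (SD, n = 9) and was the partner that fell (adjusted p = 0.00734 by edgeR). It was counted in 1 of the 12 PS19 mice, PS/E4H mouse 2, which had 153 counts. Of the other pituitary genes, Gh and Cga had log2 fold changes of -2.93 and -2.91 (adjusted p = 0.118 and 0.0634 by edgeR) at mean levels of 0.177 and 0.123 CPM in parental mice, and Tshb one of 0.62 (adjusted p = 0.0334 by edgeR). The part of pituitary tissue in the Prl values was not tested. Stra6, Slc19a1, Slc46a1, Lpar1 and Lrp6 had log2 fold changes between -0.09 and 0.02.

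The last question was whether the tau effect differed between APOE lines, tested as an interaction at an adjusted p under 0.05 by edgeR. For E2H against E3H, 0 of the 10 genes passed (0% of all genes), with the largest estimate for Aqp1 at 0.52 (95% interval -0.21 to 1.25). For E4H against E3H, 0 passed (0% of all genes), with 0.69 for Folr1 (-0.45 to 1.83) and 0.56 for Kcnj13 (-0.19 to 1.31). For E4H against E2H, 0 passed (0% of all genes), with 0.51 for Kcnj13 (-0.26 to 1.28). In each of the 3 tests 0 of the 10 had an unadjusted p under 0.05, and DESeq2 passed 0 of the 10. The larger estimates in the E4H line are therefore not shown to differ from those in the other lines.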

How the data were processed

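Forebrain RNA of 21 mice was analyzed, with each mouse placed in 1 of 6 groups by its label. The authors prepared stranded poly(A) libraries, trimmed reads with Cutadapt, aligned them with HISAT2 (build GRCm38.p5 in the submitters' processing notes) and quantified transcripts with StringTie. They deposited a table of counts per gene without normalization and a table of FPKM values. Versions of these tools and the strand setting of the counting are not given in the sources used here.

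Counts were analyzed in R 4.3.3 with edgeR 4.0.16 (TMM, filterByExpr with a minimum count of 10, quasi-likelihood F test, Benjamini-Hochberg adjustment over all 20202 to 22863 genes tested), and alternatively with DESeq2 1.42.0 and, on log2(FPKM + 1), limma 3.58.1. The edgeR step was also run on simulated data, and the outcome of that run is not given here. The standard error is the log2 fold change divided by the square root of F.

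The members and all gene lists were chosen with earlier results of these data known. Named beyond the 10 members are the 15 genes most alike and genes of the fixed lists that passed the test or had most counts. Other genes (such as listed genes with high p-values and the neighbors of Prlr) were picked with their values known. No 2 mice of a group agreed within counting noise (chi-square per gene of 17.9 or more). The p-values of comparisons of 2 groups measure the spread between 3 or 4 mice per group. In the fit over all APOE lines, the spread was estimated over all 21 mice. Same-numbered mice were not paired by their labels, and their deviations from group means correlated at -0.091 to 0.055. Alternatives were another scaling, no filter, another tool, each mouse left out, a block for the replicate number and, added after the data were seen, leaving out mice by Prlr or Ddx3y and a sex term.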

Additional observations from a re-analysis of the deposited data

How the results depend on the processing

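With edgeR at 2-fold, 0 of the 10 genes were called in each of the 9 comparisons of 2 groups and over all APOE lines, and this was also so with DESeq2, DESeq2 size factors, no filter on low counts and limma on log2(FPKM + 1). Leaving out 1 mouse at a time gave 0 to 1 called gene in PS/E4H against E4H, the 1 being Folr1 without PS/E4H mouse 1. With no limit on the fold, 4 of the 10 passed over all APOE lines. That number was 6 with DESeq2, 3 without the filter, 3 with limma, 4 with the sex term and 3 to 6 with single mice left out. The share of all genes passing in each of these settings is not given here. Prlr, at 0.08 over all APOE lines and -0.08 to 0.18 with single mice left out, turned to -0.08 without E3H mouse 2, -0.03 without PS/E2H mouse 3 and -0.06 without PS/E3H mouse 3, and the cause was not tested.

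With the replicate number as a block, which the labels do not describe as a pairing, 3 of the 10 genes passed over all APOE lines and Kcnj13 had an adjusted p of 0.124 by edgeR, while the count called at 2-fold stayed at 0 in every comparison. The number of all genes called moved more. Where edgeR called 30, 21, 39, 22, 4 and 22 genes in the APOE comparisons (in the order of the text), DESeq2 called 76, 32, 86, 67, 22 and 85 and limma 16, 11, 23, 14, 2 and 9. Against the edgeR counts of 100, 281, 621 and 595 for PS19 against parental mice (E2H, E3H, E4H and all lines), limma called 31, 59, 132 and 81, and DESeq2 called 270 for E2H. In PS/E3H against E3H the count was 77 without E3H mouse 1 and 494 without PS/E3H mouse 1, and 51 without both mice low in Prlr. For the interactions DESeq2 passed 11, 8 and 115 genes where edgeR passed 0. The lowest count in a single mouse was 151 for Sostdc1, 169 for Otx2, 188 for Aqp1, 218 for Folr1 and 247 for Kcnj13, and at least 350 for Prlr outside the 2 low mice.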
